A study of Rattus norvegicus with 294 samples.

Results

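Periostin (Postn), tenascin-C (Tnc), tenascin-N (Tnn, also called tenascin-W) and fibronectin (Fn1) were followed in 3 kinds of bone cell from rats given an antibody against sclerostin. The 4 genes were found by their probe set on a rat expression array, taking probe sets that the array annotation lists with 1 of these genes alone. Each had exactly 1 such probe set and none shared with another gene, so 4 probe sets of 31042 and 4 genes of 14217 are described. They are 1373911_at for Postn (gene ID 361945), 1373401_at for Tnc (116640), 1379331_at for Tnn (304913) and 1370234_at for Fn1 (25661). An array value is the brightness of a probe set, given below as log2 intensity, and a value of one gene is not set against that of another.

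All rats were female Sprague-Dawley animals, ovariectomized at 6 months of age and left untreated for 8 weeks, which models the bone loss that follows oestrogen loss, and there was no group with intact ovaries. They then received weekly subcutaneous injections of vehicle, or of the antibody (Scl-Ab) at 3 or 50 mg/kg, until day 183. Sclerostin is the osteocyte product that restrains Wnt signalling and bone formation, and the antibody used was a form engineered for lower immunogenicity in rats. Osteoblasts, lining cells and osteocytes were cut by laser from frozen sections of the third lumbar vertebra of the first 5 animals of a group, with calcein label marking forming surfaces, and their RNA was amplified. There were 97 arrays of osteoblasts, 100 of lining cells and 97 of osteocytes. Animals were taken during dosing on days 8, 29, 85 and 183 at both doses. After dosing stopped they were taken on days 197 and 267 for 3 mg/kg and on days 237 and 309 for 50 mg/kg, and vehicle animals on all 8 days. The 60 groups held 5 arrays each, apart from 4 groups of 4 and osteocytes at 50 mg/kg on day 85, which had 3. The labels name no rat for an array, so p-values measure the spread between these arrays, and their number limits the precision.

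These 4 proteins are laid down around cells rather than forming the mineralized scaffold itself. Periostin and tenascin-C are matricellular proteins: they bind collagen and integrins, are abundant in periosteum and tendon, and are induced by load and injury. Tenascin-N is found in periosteum and other collagen-rich tissue, and fibronectin is the fibril-forming protein on which collagen is assembled and which cells grip through integrins. In bone, periostin has been studied in mice as a link between loading and sclerostin. The captures hold many cells at once, so fewer cells of one type and less RNA per cell cannot be told apart in any value below.

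The bases before the start of Postn and Tnc are shown because these 2 genes fell together in osteoblasts on day 29. RefSeq's table for build GRCr8 held Postn, Tnc and Tnn. The 250 bases upstream of Postn lie at chr2:140677811-140678060 on the plus strand and those of Tnc at chr5:82476132-82476381 on the minus strand, and are given 5′ to 3′ along the gene. Capitals mark TATAAA or TATATA on either strand.
Postn: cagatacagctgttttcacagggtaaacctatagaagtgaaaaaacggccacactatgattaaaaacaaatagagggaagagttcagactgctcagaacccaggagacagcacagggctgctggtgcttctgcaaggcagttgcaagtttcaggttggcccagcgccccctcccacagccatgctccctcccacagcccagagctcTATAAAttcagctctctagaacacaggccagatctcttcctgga
Tnc: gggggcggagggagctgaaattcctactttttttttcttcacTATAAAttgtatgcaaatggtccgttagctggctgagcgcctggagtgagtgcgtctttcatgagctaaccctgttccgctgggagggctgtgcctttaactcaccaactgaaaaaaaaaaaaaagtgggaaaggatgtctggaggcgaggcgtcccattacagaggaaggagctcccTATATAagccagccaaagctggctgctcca
The Postn stretch held TATAAA once, beginning at base -44 counted from the gene's start. The Tnc stretch held TATAAA at base -208 and TATATA at base -30, and these did not overlap. Searched on both strands, TATAAA was in 12.9% and TATATA in 5.4% of the 250-base stretches of all 33469 entries. The E-box pattern CANNTG was present in both genes (2 matches each, and in 65.5% of all entries). CTTTGA, the core that Wnt's TCF/LEF factors recognise, had no match in either stretch, against 13.9% of all entries. The Tnn stretch had 1 CTTTGA, at base -173, and none of the other 3 motifs.

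The labelled cell types were checked against marker genes in the 40 vehicle arrays of each type. Mepe and Dmp1, products of osteocytes, had mean log2 intensities of 10.64 ± 1.22 and 10.59 ± 0.75 (SD) in osteocyte arrays. Osteoblast arrays had 6.09 ± 1.07 and 7.43 ± 1.17, and lining cell arrays 5.73 ± 1.09 and 6.27 ± 1.29. Sost, the gene of sclerostin, was above the array median in 48.5% of all osteocyte arrays and in no osteoblast array. Over the 6 osteocyte markers listed, that share of osteocyte arrays ran from 2.1% to 100%, so not every marker was detected there. Bglap, the osteocalcin gene that osteoblasts express, averaged 10.42 ± 0.89 in osteoblast, 8.30 ± 1.04 in lining cell and 11.11 ± 0.59 in osteocyte arrays, so it did not set osteoblast arrays apart. Each erythroid, granulocyte and macrophage marker listed was above the array median in at least 97.9% of the arrays of every cell type.

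Without antibody, Postn and Tnc were highest in osteocytes and Fn1 in osteoblasts. Over the 40 vehicle arrays of each type, Postn averaged 4.25 ± 1.0 in osteoblasts, 3.74 ± 0.71 in lining cells and 5.70 ± 0.91 in osteocytes (SD). Tnc averaged 3.54 ± 0.87, 3.38 ± 0.77 and 4.53 ± 0.68 in the same order. Fn1 averaged 8.96 ± 0.34, 8.42 ± 0.52 and 7.52 ± 0.73. Tnn was faint everywhere, at 2.85 ± 0.23, 2.65 ± 0.22 and 3.00 ± 0.29. All 40 osteocyte arrays were above the median of their array for Postn and Tnc, against 29 and 13 of 40 osteoblast arrays and 29 and 17 of 40 lining cell arrays. Tnn was above it in 17 osteocyte arrays and in no osteoblast or lining cell array. Later changes of Tnc in osteoblasts and lining cells, and any change of Tnn, were therefore measured close to the dim end of the array.

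The median gene differed between the 3 cell types. Whether they were normalized together is not stated, and the reason for the shift was not tested. Osteoblasts stood +0.42 over lining cells and +0.67 over osteocytes, and lining cells +0.27 over osteocytes. In limma's fit of vehicle arrays with day as a term, 8 of 9 differences of Postn, Tnc and Fn1 passed an adjusted p under 0.05 (Benjamini-Hochberg over all genes), where 94.8%, 96.8% and 80.6% of all genes passed in these pairs. Postn stood against that shift: it was lower in osteoblasts than in osteocytes by -1.45 (SE 0.16, adjusted p = 4.68e-15) and in lining cells by -1.97 (SE 0.16, adjusted p = 9.65e-22). Tnc differed by -0.99 (SE 0.10, adjusted p = 4.32e-17) and -1.15 (SE 0.10, adjusted p = 4.48e-20) in the same pairs. Genes called lower made up 2.99% of those tested for osteoblasts against osteocytes and 9.08% for lining cells against osteocytes. Fn1 ran the other way, by +1.44 in osteoblasts (SE 0.09, adjusted p = 3.91e-32) and +0.89 in lining cells (SE 0.09, adjusted p = 1.93e-17) over osteocytes, beyond the median shifts of these pairs, where 93.9% and 71.6% of genes were called higher. Tnn entered that fit only through osteocytes, being above the array median in no vehicle array of the other 2 types, so its differences between types are not given. Between osteoblasts and lining cells the differences of Fn1 (+0.54) and Postn (+0.51) stood near the median shift, where 94.7% of genes were called higher. Quantile normalization of the vehicle arrays of all 3 cell types together took these differences to +0.08 each. The labels do not say which arrays share a rat, so the fit treats arrays of the 3 cell types as independent. Postn's difference also ended with the signal range as covariate. Tnc (+0.16, adjusted p = 0.117) was not called there, passed with array weights (adjusted p = 0.0419) and turned to -0.17 with quantile normalization.

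Vehicle levels were not steady over the study. Tnc in vehicle osteoblasts averaged 5.06 ± 0.50 on day 8, 4.63 ± 0.74 on day 29 and 3.27 ± 0.36 on day 85 (SD, n = 5 each). Vehicle lining cells had 4.58 ± 0.48, 4.52 ± 0.56 and 3.22 ± 0.38, and vehicle osteocytes 5.63 ± 0.33, 4.90 ± 0.20 and 4.24 ± 0.42, on the same days. limma's moderated F test across these days passed for Tnc in osteoblasts (adjusted p = 3.43e-08), lining cells (adjusted p = 3.17e-05) and osteocytes (adjusted p = 0.00141). Postn changed in osteoblasts (5.52, 5.51 and 4.31, adjusted p = 0.00455), Fn1 in osteocytes (6.89, 7.27 and 6.48, adjusted p = 0.0442) and Tnn in osteocytes (2.98, 2.99 and 3.55, adjusted p = 0.00497). Of 10 such tests 6 passed, where 48.2% of all genes passed in osteoblasts, 3.19% in lining cells and 30.8% in osteocytes. Vehicle Tnc then stayed between 2.75 and 3.36 in osteoblasts and lining cells from day 183 on, and between 3.96 and 4.63 in osteocytes. The rats' age and any difference in the handling of arrays between days cannot be told apart. The signal range of the arrays (the 90th minus the 50th percentile of log2 values) also fell over these days, to a mean of 3.04 on day 85 against 3.48 on day 8 in vehicle osteoblasts. With it as a covariate only Tnc in osteoblasts and in lining cells still passed. The Postn result ended without replicate 4 of day 85, and that of Tnn without replicate 2 of day 85. The Fn1 result ended with quantile normalization and in 9 of 15 runs with 1 array left out (replicates 1 and 3 of day 8, 1, 2 and 5 of day 29, and 1, 3, 4 and 5 of day 85).

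**Figure D1:**
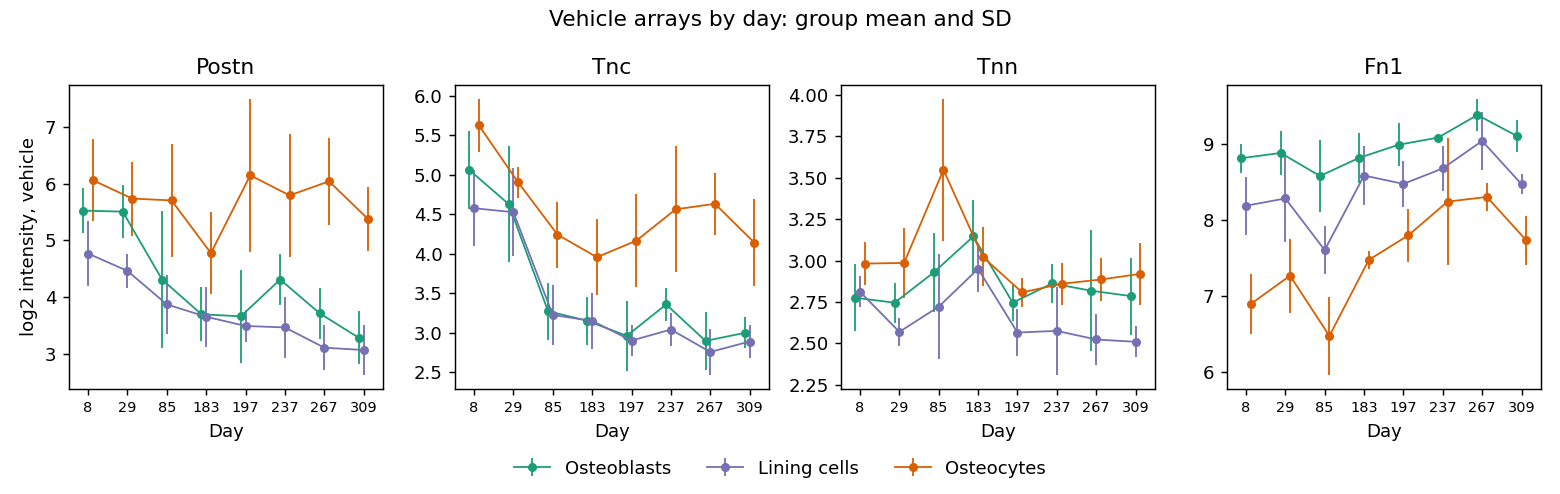
Mean log2 intensity (y axis) of Postn, Tnc, Tnn and Fn1 in vehicle arrays on each of 8 days (x axis, evenly spaced), with SD bars and n = 5 per point. Mean Tnc was lower on day 85 than on day 29 in osteoblasts (3.27 and 4.63) and lining cells (3.22 and 4.52), and mean Postn was higher in osteocytes than in the other 2 cell types on every day.

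Against vehicle of the same day, 13 of 120 tests of these genes at single doses and days passed an adjusted p under 0.05 in limma's fit of each cell type. Tnn could not be tested in osteoblasts or lining cells because it was above the array median in fewer than 5 arrays, so these are tests of 3 genes there and of all 4 in osteocytes. The passes were 6 for Tnc, 2 for Postn and 5 for Fn1, and none for Tnn. No gene of the 4 passed at 3 mg/kg while dosing went on, and 1 pass at 3 mg/kg came after it had stopped. Few genes of any kind passed at 3 mg/kg during dosing. The share called either way was at most 0.605% in osteoblasts, 0.0345% in lining cells and 1.46% in osteocytes. Across the 36 comparisons of a dose and day with vehicle, the share of all genes called either way ran from 0% to 28.4%. Calls at the same day share their vehicle arrays.

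Tnc fell early in dosing. In osteoblasts on day 8 its log2 intensities were 3.41, 3.65, 4.01, 3.52 and 4.13 at 50 mg/kg, against 5.84, 5.23, 4.92, 4.63 and 4.68 in vehicle. Every antibody array was below every vehicle array. The difference was -1.32 (SE 0.24, adjusted p = 0.000166, lower in 5 of 5), a ratio of 0.401. Of all genes 2.99% were called lower in that comparison. On day 29 the osteoblast values were 3.53, 3.01, 3.94, 3.24 and 3.61 at 50 mg/kg, against 4.43, 3.95, 5.69, 5.05 and 4.02 in vehicle. The groups again did not overlap, though the highest antibody array and the lowest vehicle array nearly met. The difference was -1.16 (SE 0.24, adjusted p = 0.000226), where 20.6% of all genes were called lower. No setting tried and no array left out ended either call.

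Lining cells gave the same direction for Tnc with fewer other genes. On day 29 their values were 3.15, 3.29, 3.78, 3.58 and 3.63 at 50 mg/kg, against 4.35, 4.36, 4.97, 5.18 and 3.77 in vehicle. One vehicle array lay within the antibody range and the other 4 above it. The difference was -1.04 (SE 0.22, adjusted p = 0.0063), and Tnc was the only gene of 11600 called lower there, a share of 0.0086%. It ended with the compared groups alone (adjusted p = 0.0906) and without vehicle replicate 3 or 4. On day 8 the 50 mg/kg lining cells had 3.81, 3.68, 3.44, 4.01 and 4.43, against 4.71, 5.19, 4.80, 4.14 and 4.04 in vehicle. That difference of -0.70 (adjusted p = 0.106) did not pass, although all 5 antibody arrays were below the vehicle mean.

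In osteocytes on day 8 Tnc was 4.66, 4.68, 4.90, 4.00 and 4.56 at 50 mg/kg, against 5.63, 6.08, 5.60, 5.69 and 5.14 in vehicle. The groups did not overlap, yet the difference of -1.07 (SE 0.30, adjusted p = 0.0617) missed the threshold, where 0.927% of all genes were called either way. It passed with array weights (adjusted p = 0.00817), with the compared groups alone (adjusted p = 0.00631) and without vehicle replicate 5. On day 29 the osteocyte groups overlapped, with a difference of -0.29 (SE 0.30, adjusted p = 0.683).

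At 3 mg/kg the early Tnc differences had the same sign and did not pass singly. They were -0.65 and -0.84 in osteoblasts on days 8 and 29 (adjusted p = 0.575 and 0.166), and -0.88 and -0.82 in lining cells (adjusted p = 0.233 and 0.383). Of all genes 0% and 0.0701% were called either way in these osteoblast comparisons, and 0% in both lining cell comparisons. In lining cells on day 8 the 3 mg/kg values of 3.13, 3.45, 3.99, 3.93 and 3.97 all lay below the lowest vehicle value of 4.04. With both doses averaged, Tnc fell by 0.98 on day 8 (SE 0.21, adjusted p = 0.00318, 9 of 9 arrays) and by 1.0 on day 29 (SE 0.21, adjusted p = 0.000903, 10 of 10) in osteoblasts. Genes called lower made up 1.11% and 12.4% there. In lining cells it fell by 0.79 on day 8 (SE 0.19, adjusted p = 0.0319, 10 of 10) and by 0.93 on day 29 (SE 0.19, adjusted p = 0.0139, 9 of 10), where 0.25% and 0.0086% of genes were called lower. Both lining cell calls ended with the compared groups alone (adjusted p = 0.26 and 0.567), and that of day 29 also with array weights (adjusted p = 0.254). Leaving out 1 array ended the day 8 call in 7 of 15 runs (vehicle replicates 1, 2 and 3, replicates 1 and 2 at 3 mg/kg, and replicates 2 and 3 at 50 mg/kg). It ended the day 29 call in 2 of 15 (vehicle replicates 3 and 4).

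On days 85 and 183 no Tnc difference passed in any cell type. Osteoblasts at 50 mg/kg had means of 3.32 and 3.06 on these days, against 3.27 and 3.15 in vehicle. These vehicle means were below the 50 mg/kg osteoblast means of days 8 and 29 (3.74 and 3.47). The F test that the dose-averaged response was equal on the 4 dosing days passed for Tnc in osteoblasts (F = 9.81, adjusted p = 0.00132) and not in lining cells (F = 7.84, adjusted p = 0.122) or osteocytes (F = 4.24, adjusted p = 0.176). Of all genes 17.7%, 0.0431% and 0.767% passed it.

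After dosing stopped, Tnc in osteocytes was above vehicle. On day 237 its values were 5.31, 5.11, 5.67, 5.56 and 6.19 in animals that had received 50 mg/kg, against 5.01, 5.40, 4.04, 4.91 and 3.45 in vehicle. One vehicle array lay inside the antibody range. The difference was +1.0 (SE 0.30, adjusted p = 0.0169), where 7.04% of genes were called higher. On day 309 the values were 6.43, 5.22, 4.96, 6.71 and 5.22, against 4.44, 4.47, 4.18, 3.18 and 4.43 in vehicle. All 5 antibody arrays were above all vehicle arrays. The difference of +1.57 (SE 0.30, adjusted p = 0.000121) is a ratio of 2.96, and 5.36% of genes were called higher. For 3 mg/kg on day 267 the values were 6.17, 5.16, 5.78, 6.07 and 5.85, against 4.68, 4.73, 4.86, 4.93 and 3.96 in vehicle. These groups also did not overlap (+1.17, SE 0.30, adjusted p = 0.0144), with 3.46% of genes called higher.

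The day 309 call held in every setting tried and with each array left out. That of day 237 ended with the compared groups alone (adjusted p = 0.0696) and without vehicle replicate 3 or 5 or antibody replicate 5. That of day 267 ended with quantile normalization (adjusted p = 0.0852), with the signal range as covariate (adjusted p = 0.0978) and without vehicle replicate 5 or antibody replicate 1. On day 197, after 3 mg/kg, osteocyte Tnc was split: 3.97, 4.10, 5.90, 5.31 and 5.53, against 4.81, 4.59, 3.99, 3.29 and 4.14 in vehicle (+0.80, adjusted p = 0.197, and 0.0485 with array weights). Of all genes 1.11% were called either way there, and 9.33% with array weights. In osteoblasts and lining cells the 4 differences after 50 mg/kg ran from +0.29 to +0.59 and none passed.

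The response after dosing minus the response on days 8 and 29 was a contrast chosen after these values were seen, so its p-values are no independent support. In osteoblasts and lining cells no Tnc difference after dosing at 50 mg/kg had passed by itself (+0.29 to +0.59), and the contrast there holds mostly the early fall. At 50 mg/kg, over days 237 and 309, it was +1.68 for Tnc in osteoblasts (SE 0.24, adjusted p = 1.81e-06), +1.31 in lining cells (SE 0.22, adjusted p = 8.77e-05) and +1.97 in osteocytes (SE 0.30, adjusted p = 1.28e-05). Genes called higher made up 3.81%, 0.121% and 1.83%. None of the settings run and no left-out array ended these 3 calls. At 3 mg/kg, over days 197 and 267, it was +0.97 in osteoblasts (SE 0.24, adjusted p = 0.222), +1.08 in lining cells (SE 0.22, adjusted p = 0.0203) and +1.42 in osteocytes (SE 0.31, adjusted p = 0.113). In osteoblasts and osteocytes no gene at all passed at that dose. Osteocyte Tnc passed with array weights (adjusted p = 0.0167) and with the signal range as covariate (adjusted p = 0.018), where 0.059% and 0.0253% of all genes passed. The lining cell call, where 0.0172% of genes were called higher, ended in 9 of 40 runs with 1 array left out. Those arrays were vehicle replicate 2 of day 8, replicates 3 and 4 of day 29 and replicate 1 of day 267, and 3 mg/kg replicates 1 and 2 of day 8, 1 and 2 of day 29 and 3 of day 197. For Postn the contrast passed in osteoblasts at 50 mg/kg (+1.43, SE 0.37, adjusted p = 0.0136), and ended without 50 mg/kg replicate 4 of day 237 and with the signal range as covariate (adjusted p = 0.0588). Fn1 and Tnn did not pass it.

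**Figure D2:**
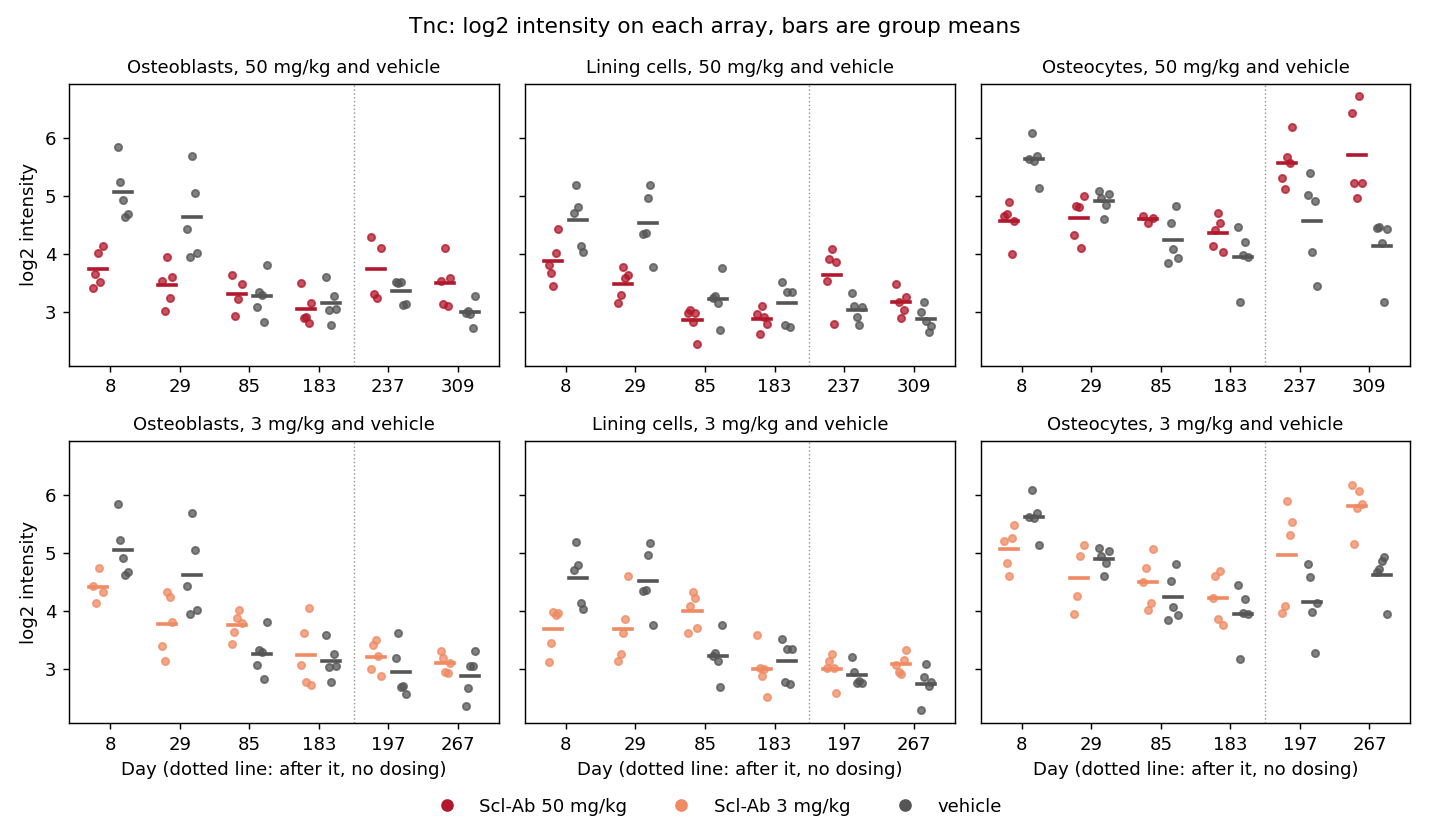
Tnc log2 intensity (y axis) on each array by day (x axis, evenly spaced), with antibody points left of the vehicle points of the same day and bars at group means. Upper panels show 50 mg/kg and lower panels 3 mg/kg. In osteocytes on day 309 all 5 antibody arrays (4.96 to 6.71) are above all 5 vehicle arrays (3.18 to 4.47), and on day 8 all 5 (4.00 to 4.90) are below them (5.14 to 6.08).

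Postn fell in osteoblasts on day 29 and was higher in osteocytes late in dosing. In osteoblasts on day 29 its log2 intensities were 4.24, 3.22, 3.20, 3.94 and 3.64 at 50 mg/kg, against 5.76, 4.96, 5.67, 6.06 and 5.09 in vehicle. The groups were well apart. The difference was -1.86 (SE 0.36, adjusted p = 0.00011, ratio 0.275), and it held in every setting and with each array left out, in a comparison where 20.6% of all genes were called lower. At 3 mg/kg the values were 3.79, 4.05, 5.19, 4.68 and 5.29, overlapping vehicle (-0.91, SE 0.36, adjusted p = 0.328). Averaged over doses Postn fell by 1.39 (SE 0.32, adjusted p = 0.0022, 10 of 10), where 12.4% of genes were called lower. No other day passed in osteoblasts. On day 8 the 50 mg/kg difference was -0.63 (adjusted p = 0.317) and on day 85 it was -0.06 (adjusted p = 0.958). The response differed between the 4 dosing days (F = 6.87, adjusted p = 0.00754), except with the signal range as covariate (adjusted p = 0.137).

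In osteocytes on day 183 Postn was 6.47, 6.77, 7.06, 6.63 and 7.05 at 50 mg/kg, against 6.00, 4.69, 4.39, 4.16 and 4.65 in vehicle. Every antibody array exceeded the highest vehicle array. The difference of +2.02 (SE 0.44, adjusted p = 0.000808, ratio 4.05) held in every setting and with each array left out, and 4.93% of genes were called higher. The mean at 50 mg/kg was 6.79 ± 0.26, inside its range over the other 5 days (5.55 to 7.15), and the vehicle mean of 4.78 ± 0.71 was below its range over the other 7 (5.37 to 6.15). At 3 mg/kg the day 183 values were 6.11, 5.01, 5.48, 6.27 and 5.48 (+0.89, adjusted p = 1), overlapping vehicle through its replicate 1. On day 85 osteocyte Postn was 7.90, 5.91 and 7.65 at 50 mg/kg and 7.51, 7.26, 6.61, 6.35 and 6.76 at 3 mg/kg, against 5.65, 6.39, 6.66, 5.72 and 4.11 in vehicle. Singly these missed the threshold (+1.45, adjusted p = 0.0506, and +1.19, adjusted p = 0.151), the first passing with quantile normalization (adjusted p = 0.0304), where 13.8% of all genes were called either way against 10.1% without it. Averaged over doses they passed at +1.32 (SE 0.40, adjusted p = 0.0306, 8 of 8), where 4.43% of genes were called higher, as did day 183 at +1.45 (SE 0.38, adjusted p = 0.0199, 10 of 10; 1.75% of genes).

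The day 85 average ended with array weights (adjusted p = 0.428), with the compared groups alone (adjusted p = 0.211) and without vehicle replicate 5, 3 mg/kg replicate 1, or 50 mg/kg replicate 1 or 3. The day 183 average ended without vehicle replicate 2, 3, 4 or 5. After dosing the osteocyte differences of Postn were +0.01 on day 197 and +1.08 on day 267 (3 mg/kg, adjusted p = 0.994 and 0.167), and +0.66 and +0.95 on days 237 and 309 (50 mg/kg, adjusted p = 0.362 and 0.126). Day 267 passed with array weights (adjusted p = 0.0196) and with the compared groups alone (adjusted p = 0.0277), and day 309 with the signal range as covariate (adjusted p = 0.0193) and with the compared groups alone (adjusted p = 0.0397). Of all genes 3.63% were called either way on day 267, 11.2% with array weights and 8.53% with the compared groups alone. On day 309 these shares were 16.4%, 12.2% with the signal range and 10.4% with the compared groups alone. In lining cells no Postn difference passed at any dose or day. The lining cell difference at 50 mg/kg on day 29 was +0.05, with a 95% interval from -0.68 to 0.79.

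**Figure D3:**
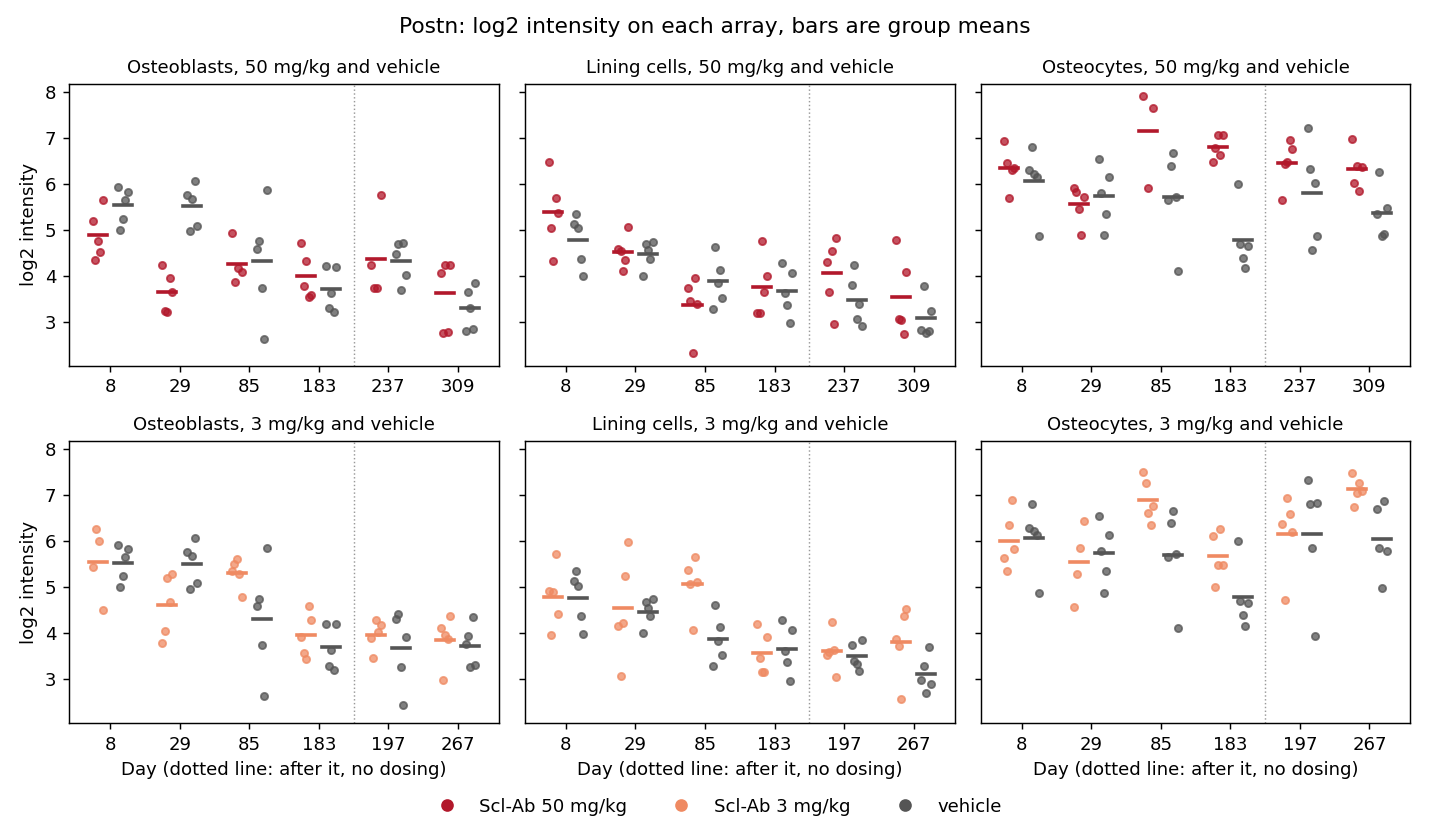
Postn log2 intensity (y axis) on each array by day (x axis, evenly spaced), with antibody points left of the vehicle points of the same day and bars at group means, 50 mg/kg above and 3 mg/kg below. In osteoblasts on day 29 the 50 mg/kg arrays (3.20 to 4.24) are all below vehicle (4.96 to 6.06), and in osteocytes on day 183 they are all above it (6.47 to 7.06 against 4.16 to 6.00).

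Fn1 was higher at 50 mg/kg in osteoblasts and osteocytes, by smaller amounts. In osteoblasts on day 8 it was 9.67, 9.51, 9.51, 9.05 and 9.25 at 50 mg/kg, against 8.57, 8.71, 9.02, 8.78 and 9.0 in vehicle. On day 85 it was 9.25, 9.07, 9.34 and 9.37, against 8.63, 8.77, 8.76, 8.98 and 7.77. On day 183 it was 9.32, 9.33, 9.74, 9.68 and 9.44, against 8.32, 8.84, 8.74, 9.21 and 9.0. On each of these days the lowest antibody array was just above the highest vehicle array. The differences were +0.58 (SE 0.18, adjusted p = 0.0316), +0.67 (SE 0.19, adjusted p = 0.0261) and +0.68 (SE 0.18, adjusted p = 0.0165), which are ratios of 1.50, 1.59 and 1.60. Genes called higher made up 5.2%, 3.38% and 3.28% on these days.

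These osteoblast calls were not firm. All 3 ended with quantile normalization (adjusted p = 0.0795, 0.0522 and 0.136), those of days 85 and 183 with the signal range as covariate (adjusted p = 0.0987 and 0.0996), and that of day 85 with the compared groups alone (adjusted p = 0.149). Leaving out 1 array ended them in 6 of 10, 4 of 9 and 3 of 10 runs. On day 8 these were vehicle replicates 1, 2 and 4 and antibody replicates 1, 2 and 3. On day 85 they were vehicle replicate 5 and antibody replicates 1, 3 and 4, and on day 183 vehicle replicate 1 and antibody replicates 3 and 4. On day 29 the difference was +0.22 (adjusted p = 0.365), and after dosing +0.50 and +0.13 on days 237 and 309 (adjusted p = 0.0831 and 0.679). Quantile normalization gave calls on days 29 and 237 (adjusted p = 0.0373 and 0.0186), and array weights and the signal range also gave day 237 (adjusted p = 0.0329 and 0.0187).

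In osteocytes on day 8 Fn1 was 8.13, 8.05, 7.74, 7.72 and 8.22 at 50 mg/kg, against 6.71, 6.47, 7.17, 7.43 and 6.69 in vehicle. On day 183 it was 9.01, 8.11, 8.24, 8.70 and 8.47, against 7.42, 7.35, 7.64, 7.42 and 7.55. The groups did not overlap on either day. The differences were +1.08 (SE 0.26, adjusted p = 0.0207) and +1.03 (SE 0.26, adjusted p = 0.00626), ratios of 2.12 and 2.04. Of all genes 0.312% were called higher on day 8 and 4.93% on day 183. The day 183 call held in every setting and with each array left out. That of day 8 ended without vehicle replicate 1 or 2 or antibody replicate 5. On day 85 the dose-averaged difference passed at +0.83 (SE 0.24, adjusted p = 0.0219, 8 of 8), where 4.43% of genes were called higher. That call ended with array weights, with the compared groups alone (adjusted p = 0.212 and 0.359) and without vehicle replicate 5, 3 mg/kg replicate 1 or 50 mg/kg replicate 3. After dosing, osteocyte Fn1 differed by +0.24 and -0.28 on days 237 and 309 (adjusted p = 0.618 and 0.52). Lining cells gave no Fn1 call, with 50 mg/kg differences between -0.01 and +0.33.

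**Figure D4:**
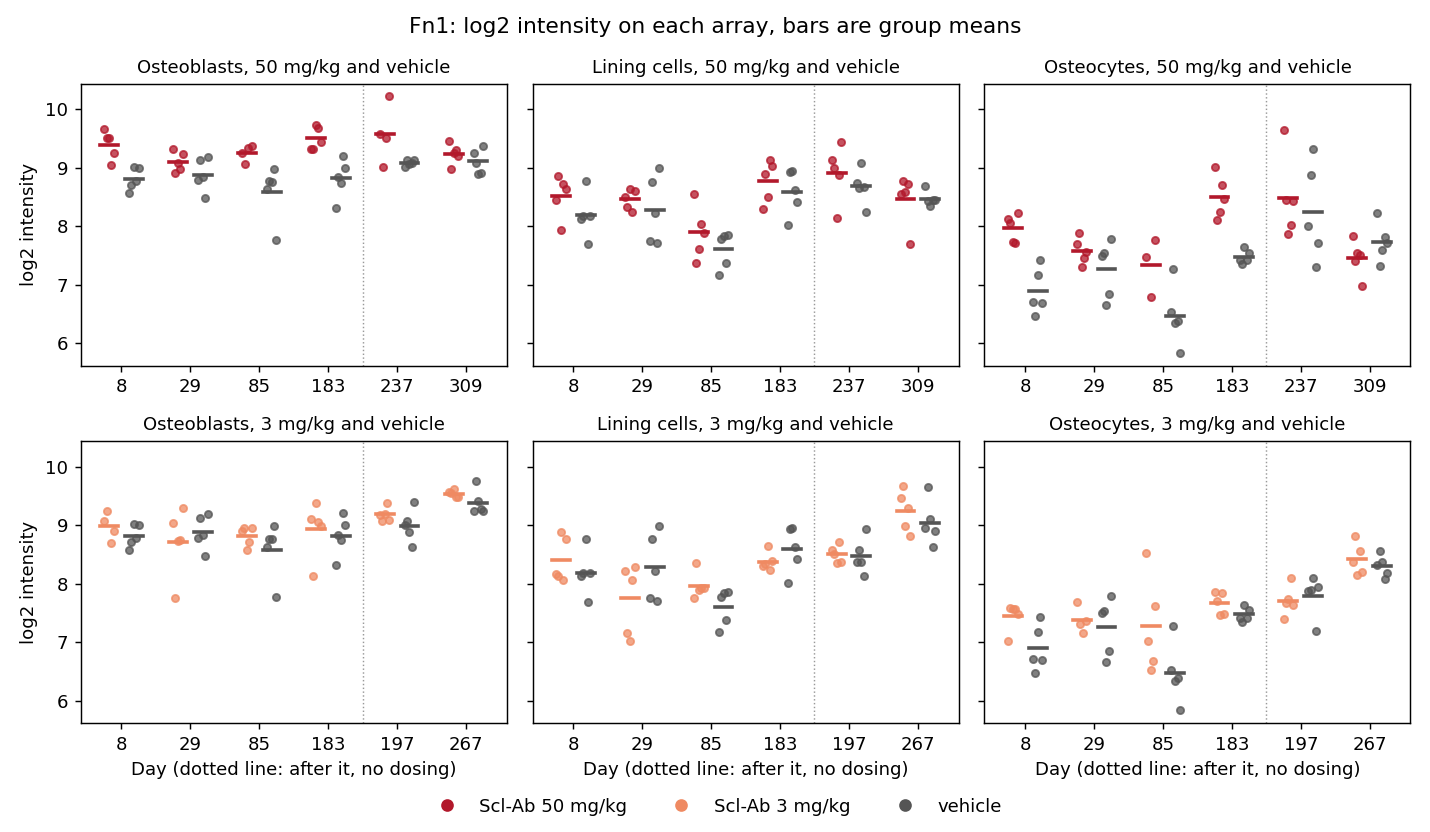
Fn1 log2 intensity (y axis) on each array by day (x axis, evenly spaced), with antibody points left of the vehicle points of the same day and bars at group means, 50 mg/kg above and 3 mg/kg below. In osteocytes the 50 mg/kg arrays on days 8 (7.72 to 8.22) and 183 (8.11 to 9.01) are all above vehicle (6.47 to 7.43 and 7.35 to 7.64).

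Tnn did not pass against vehicle at any dose or day in osteocytes. Its 12 differences there lay between -0.27 (50 mg/kg, day 85, adjusted p = 0.396) and +0.23 (3 mg/kg, day 197, adjusted p = 0.543). The group means of Tnn ran from 2.81 to 3.55 in osteocytes, from 2.62 to 3.14 in osteoblasts and from 2.51 to 2.95 in lining cells.

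The doses were also compared directly, as 50 minus 3 mg/kg averaged over the 4 dosing days, which uses no vehicle array. Of 10 tests 3 passed, where 2.53% of genes passed in osteoblasts, 0.647% in lining cells and 15% in osteocytes. Genes higher at 50 mg/kg were 1.4% in osteoblasts and 6.84% in osteocytes, and genes lower were 1.13% in osteoblasts. Fn1 was higher at 50 mg/kg in osteoblasts by +0.45 (SE 0.09, adjusted p = 0.00139) and in osteocytes by +0.41 (SE 0.14, adjusted p = 0.0333). Postn averaged lower at 50 mg/kg in osteoblasts (-0.66, SE 0.19, adjusted p = 0.0351), unevenly over the days. Its means at 50 and 3 mg/kg were 4.89 and 5.55 on day 8, and 3.65 and 4.60 on day 29. They were 4.26 and 5.31 on day 85, with vehicle at 4.31, and 3.98 and 3.96 on day 183. Tnc in osteoblasts missed the threshold (-0.41, SE 0.12, adjusted p = 0.0531). It passed with the signal range as covariate (adjusted p = 0.0443, where 4.0% of all genes passed) and in 10 of 38 runs with 1 array left out. Leaving out 1 array ended the Postn call in 14 of 38 runs. At 3 mg/kg these were replicates 2 and 3 of day 8, 3 and 5 of day 29, 3 of day 85, and 4 and 5 of day 183. At 50 mg/kg they were replicates 2 of day 8, 2 and 3 of day 29, 2 and 4 of day 85, and 4 and 5 of day 183. The osteocyte Fn1 call ended in 8 of 37 (3 mg/kg replicates 1 of day 8, 3 of day 29, and 3 and 4 of day 85, and 50 mg/kg replicates 2 of day 29, 1 and 3 of day 85, and 1 of day 183), and the osteoblast Fn1 call in none.

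Whether the dose-averaged response differed between cell types was tested on each dosing day for Postn, Tnc and Fn1, and 0 of 36 tests passed in limma's fit of all arrays. Unadjusted, 6 had a p under 0.05, where 223 to 1893 of all 12511 genes did in a single comparison. Captures of the 3 cell types in a group came from the same rats, but the labels do not say which arrays share one, so the fit treats all arrays as independent. The largest were for Postn, at -1.45 for osteoblasts minus lining cells on day 29 (SE 0.50, 95% interval from -2.42 to -0.48, adjusted p = 0.207) and -1.45 for lining cells minus osteocytes on day 183 (SE 0.50, adjusted p = 0.212). On days 8, 29, 85 and 183, the share of all genes that passed was 0%, 0.176%, 0.168% and 0.024% for osteoblasts against lining cells. It was 0%, 1.14%, 2.02% and 0.488% for osteoblasts against osteocytes, and 0%, 0.104%, 2.21% and 0.639% for lining cells against osteocytes. With array weights the day 183 difference of Postn passed (-1.39, adjusted p = 0.0368), where 2.74% of all genes passed against 0.639% without them. The fall of Postn in osteoblasts and its lack of a call in lining cells are therefore not shown to differ.

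**Figure D5:**
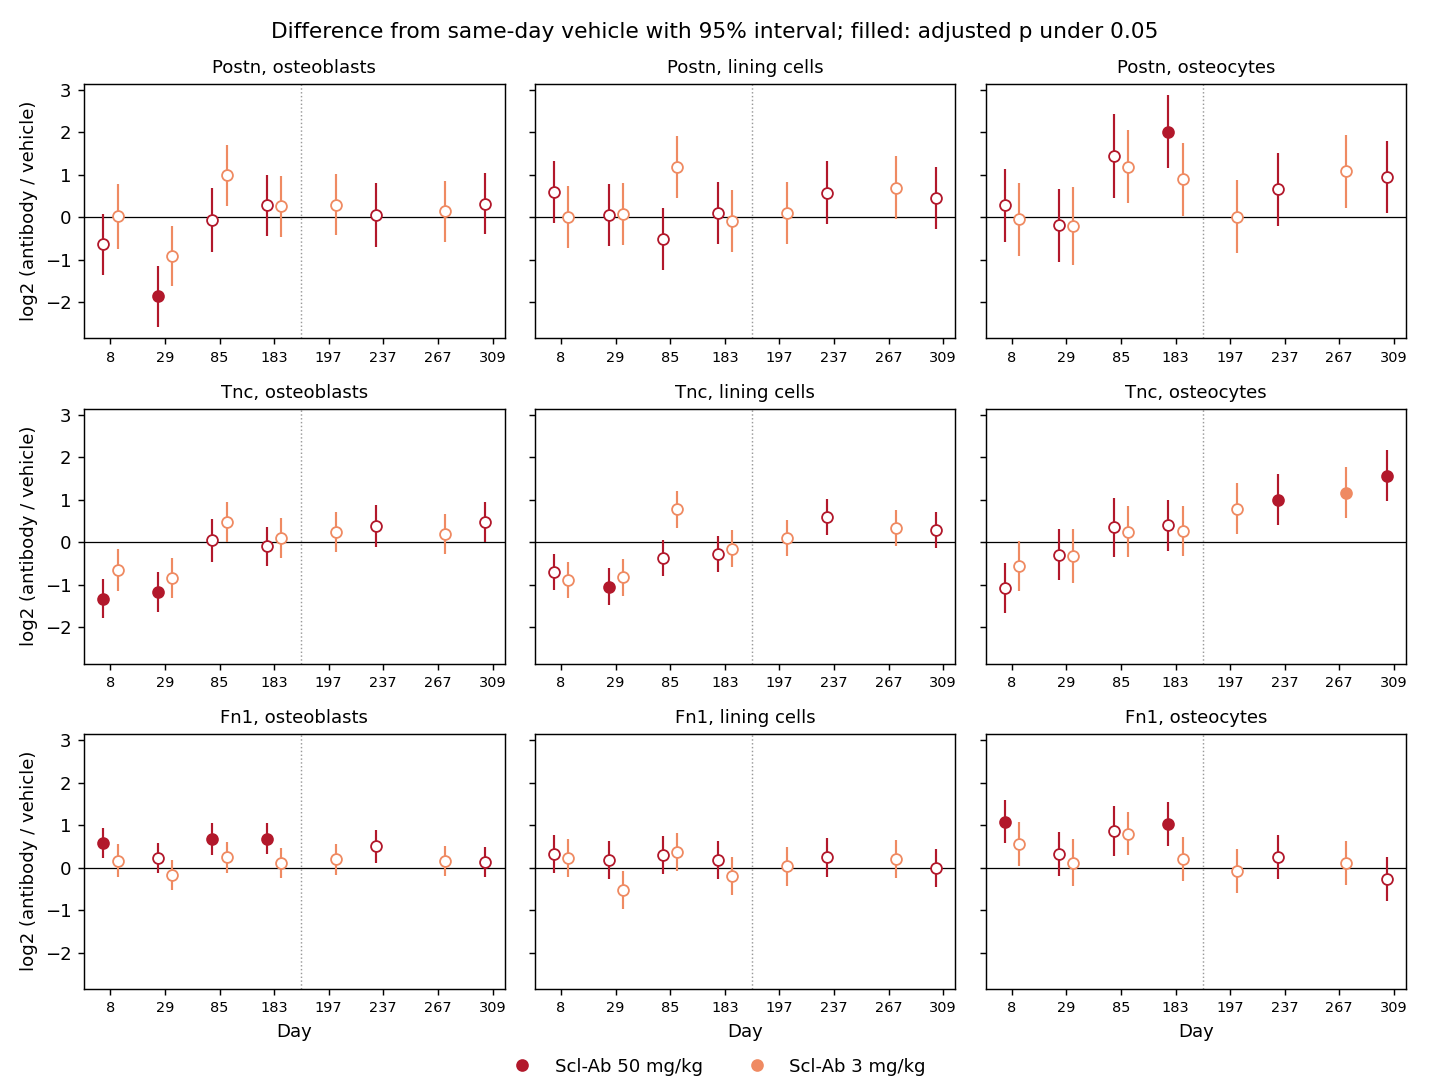
Difference in log2 intensity between antibody and same-day vehicle (y axis) for Postn, Tnc and Fn1 in each cell type by day (x axis, evenly spaced), with 95% intervals, 50 mg/kg left of 3 mg/kg and filled points where the adjusted p is under 0.05. Osteocyte Tnc goes through -1.07 on day 8 at 50 mg/kg, +0.41 on day 183 and +1.57 on day 309.

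Across the 60 group means, each cell type centred on its own mean, Postn and Tnc had a Pearson r of 0.73 (0.88 in osteoblasts, 0.83 in lining cells and 0.46 in osteocytes). Other pairs of the 4 genes lay between -0.37 and 0.13. The 3 genes most like Tnc among 11127 were Limch1 (0.82), Gask1b (0.81) and Adamts9, a secreted protease (0.80). For Postn they were Sdc2, a syndecan (0.80), Fat1 (0.76) and Zfp758 (0.76). For Fn1 they were Naca (0.78), Zfp664 (0.76) and Eif4g2 (0.72), and for Tnn LOC102548472 (0.75), Fjx1 (0.71) and Gc (0.71). Group means share days and vehicle animals, so these are descriptions only.

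Matrix partners are genes whose products meet these proteins in the matrix. Of 14 tested in osteoblasts at 50 mg/kg on day 29, when Postn and Tnc fell, 5 were called higher and none lower. The median difference of the 14 was +0.38 (all genes -0.08). Of all genes 28.4% were called either way, and 20.6% were called lower. The 5 included the collagens Col1a1 (+1.97, adjusted p = 0.000227) and Col5a1 (+1.60, adjusted p = 1.2e-05) and the collagen cross-linking enzyme Lox (+1.57, adjusted p = 6.98e-06). In lining cells on day 29, 3 of 14 were higher and none lower: Col1a1 (+2.51), Lox (+1.15) and Col5a1 (+1.09), where 0.207% of genes were called either way. In osteocytes on day 309, when Tnc was high, 6 of 15 were higher and none lower, led by Col6a1 (+1.80), Col3a1 (+1.50) and Col5a1 (+1.13), where 16.4% of all genes were called either way and 5.36% higher. On day 237 in osteocytes 5 were higher and 3 lower, with Col1a1 at -1.87 and Col3a1 at +1.77, where 13.2% of all genes were called either way and 7.04% higher. On day 267, after 3 mg/kg, none of the 15 was called.

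Genes of TGF-beta signalling, which induces periostin, tenascin-C and fibronectin in cultured fibroblasts, were split in osteoblasts on day 29. Of 10 tested, 4 were higher and 4 lower, among them the transcription factor Twist1 (+1.56), the TGF-beta target Ccn2 (-1.48) and the TGF-beta mediator Smad2 (-0.73), where 28.4% of all genes were called either way. In osteocytes at 50 mg/kg Ccn2 was higher on days 29, 85, 183 and 237 (+2.24, +2.50, +2.64 and +2.33), and on day 183 the ligand Tgfb2 as well (+1.51), 2 of 10 in all. Of all genes 6.5%, 10.1%, 6.38% and 13.2% were called either way on those days. Among receptors, Itgav (an integrin chain that binds periostin, tenascin-C and fibronectin) was lower in osteoblasts on day 8 (-1.06), and was the only call of 9 receptors, where 8.19% of genes were called either way and 2.99% lower. Itgb1 was the only one on day 29 (-0.73). Focal adhesion genes gave 6 of 14 higher on day 85 and 4 of 14 on day 183 in osteoblasts, led by Zyx (+0.97), Tln1 (+0.94) and Lims1 (+0.84) and by Vcl (+0.95), Tln1 (+0.89) and Lims1 (+0.82). Of all genes 4.47% and 4.42% were called either way on these days, and 3.38% and 3.28% higher. Platelet-lineage markers moved with the focal adhesion genes, 5 and 4 of 6 higher.

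Markers of other cells also moved in the comparisons where these genes changed, and their part in the results was not tested. In osteoblasts at 50 mg/kg, 8.19% of all genes were called either way on day 8 and 28.4% on day 29. In osteoblasts on day 8 the osteoclast enzymes Acp5 (-1.16) and Ctsk (-1.15) were lower, 2 of 3 tested, and the summed osteoclast marker intensity was 3323 to 6683 at 50 mg/kg, against 9184 to 12351 in vehicle. On day 29 they were lower again (-1.23 and -1.13), with sums of 2609 to 4070 against 4864 to 9116 in vehicle. Erythroid markers were higher on day 8 (6 of 8, sums of 12728 to 18823 against 9020 to 10507 in vehicle) and none were called on day 29. Osteoblast markers gave 0 of 7 calls on day 8, with sums of 22045 to 33345 at 50 mg/kg, against 17106 to 19688 in vehicle. On day 29 they were higher in 5 of 7 and lower in 1, with sums of 23491 to 26136 at 50 mg/kg, against 9039 to 15190 in vehicle, and the sums overlapped on neither day. Fibroblast and tendon markers gave 0 of 4 calls on day 8 and 1 higher of 4 on day 29 (Scx, +0.68), with sums of 102 to 159 at 50 mg/kg on day 29, against 74 to 108 in vehicle. Tnmd, Prrx1 and Dpt of that list were above the array median in no array of either group. The signal range averaged 3.16 at 50 mg/kg and 3.53 in vehicle on day 29, and 3.52 and 3.48 on day 8.

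In lining cells on day 29 no osteoclast, erythroid, granulocyte, macrophage or fibroblast marker was called, and osteoblast markers were higher in 3 of 7 (sums of 5434 to 13240 at 50 mg/kg, against 2088 to 3643 in vehicle). Of all genes 0.207% were called either way there. For osteocytes at 50 mg/kg that share was 0.927% on day 8, 6.38% on day 183, 13.2% on day 237 and 16.4% on day 309. After 3 mg/kg it was 3.63% in osteocytes on day 267. In osteocytes on day 183 the osteocyte markers themselves were higher in 3 of 5, with Mepe at +2.82, Pdpn at +2.48 and Dmp1 at +2.17, and their sums were 9555 to 14179 at 50 mg/kg, against 1418 to 2756 in vehicle. Endothelial markers were higher in 4 of 6 on that day (sums of 97 to 150 against 60 to 75 in vehicle) and Dpt, 1 of 4 fibroblast and tendon markers, by +0.95. On day 237 osteocyte markers were higher in 4 of 5 and endothelial markers in 4 of 6, while osteoblast markers were lower in 4 of 7 and erythroid markers in 5 of 8. On day 267, after 3 mg/kg, 2 of 5 osteocyte and 2 of 7 osteoblast markers were higher and no marker of marrow, muscle or fibroblasts was called. On day 309 osteocyte markers were again higher in 3 of 5 (sums of 2797 to 9410 against 940 to 4554 in vehicle). Muscle markers were higher in 4 of 5 on that day, with sums of 278 to 673 against 225 to 332 in vehicle and Myh4 above the array median in no array. On day 309 osteoclast Acp5 was also higher (+0.99), 1 of 4, with osteoclast sums of 12144 to 16681 against 8860 to 11739 in vehicle. Erythroid markers were lower in 4 of 8 (sums of 6959 to 12718 against 12858 to 15629 in vehicle). Fibroblast and tendon markers were higher in 1 of 4 (Scx, +0.72, sums of 83 to 147 against 60 to 101 in vehicle). On day 8 in osteocytes none of the erythroid, granulocyte, macrophage, muscle or fibroblast markers was called, beside the Fn1 call of that day. Osteoblast markers were higher in 1 of 7 there (Sparc, +1.26), and their sums of 22883 to 31544 at 50 mg/kg did not overlap the 12858 to 20742 of vehicle.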

How the data were processed

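RNA from laser-captured cells was measured on Affymetrix rat arrays. The deposited values are intensity on a linear scale (2.94 to 28282), and the submitters' processing notes name RMA, affy 1.38.1, R 3.0.1 and Affymetrix Expression Console, with no role for each. No label or file states whether the cell types were normalized together. Their log2 was taken, since the plan had assumed log2 values. Of 31042 probe sets, 20826 had 1 listed gene, 436 several and 9780 none. A gene was represented by its probe set with the highest mean, and 20758 probe sets took their symbol from the gene table. Genes above the array median in at least 5 arrays of a fit were tested with limma 3.58.1 (R 4.3.3) lmFit and eBayes, 1 mean per treatment and day, 20 groups per cell type, with two-sided tests and Benjamini-Hochberg adjustment over all genes at 0.05. Intervals are 1.96 SE. The fits were tested on simulated data. No 2 arrays were identical (highest r 0.9925). Of each list at most 3 called genes per comparison were named, by size. The 4 genes, the gene lists and the marker lists were chosen with earlier results of these data known. Alternatives were no filter, quantile normalization, the mean of probe sets, array weights, the signal range as covariate, the compared groups alone, and single arrays, vehicle days or replicate numbers left out. Quantile normalization took the arrays of a fit together. Replicates are numbered in accession order.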

Additional observations from a re-analysis of the deposited data

Results flagged for a closer look

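Of 196 combinations of a gene and a group of 4 or 5 arrays, 11 held an array far from the others by Dixon's ratio, and chance flags about 1 in 20 groups. In osteocytes the vehicle arrays so marked were Postn on day 183, replicate 1, at 6.00 (others 4.16 to 4.69), Tnc on day 267, replicate 5, at 3.96 (others 4.68 to 4.93), and Tnc on day 309, replicate 4, at 3.18 (others 4.18 to 4.47). Fn1 in vehicle osteocytes on day 197, replicate 4, was 7.19 (others 7.87 to 8.09), and in vehicle osteoblasts on day 85, replicate 5, it was 7.77 (others 8.63 to 8.98). The calls of Tnc on day 309 and of Postn at 50 mg/kg on day 183 did not end without these arrays. Those of Tnc on day 267 and of Fn1 in osteoblasts on day 85 did.

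Antibody arrays so marked were Tnn in osteocytes at 3.29 (3 mg/kg, day 8, replicate 3; others 2.78 to 2.89), 4.57 (3 mg/kg, day 85, replicate 3; others 2.80 to 3.24) and 3.43 (50 mg/kg, day 237, replicate 1; others 2.64 to 2.87). For Fn1 they were 8.36 in lining cells (3 mg/kg, day 85, replicate 2, others 7.75 to 7.93), 7.69 in lining cells (50 mg/kg, day 309, replicate 5, others 8.55 to 8.78) and 7.02 in osteocytes (3 mg/kg, day 8, replicate 1, others 7.49 to 7.59).

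The response differed between the dosing days for Postn and Tnc in osteoblasts (moderated F of 6.87 and 9.81). In a contrast chosen after the values were seen, it also differed between the days after dosing and days 8 and 29 at 50 mg/kg for Postn in osteoblasts (+1.43) and for Tnc in osteoblasts (+1.68), lining cells (+1.31) and osteocytes (+1.97), and at 3 mg/kg for Tnc in lining cells (+1.08).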

How the results depend on the processing

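No paired analysis was possible because replicate numbers were given in accession order and the labels tie no array to a rat. Of 48 called results of the 4 genes, 28 kept the call in every alternative run, and 18 of the 37 for which arrays were left out kept it throughout. Only 1 of 65 results with such values reversed, Tnc in osteoblasts minus lining cells, which was -0.17 with quantile normalization of all vehicle arrays together. With the signal range as covariate, calls of the response across dosing days numbered 1 in place of 2, and those of vehicle levels across days 2 in place of 6. The shares of all genes passing also fell, to 2.57% against 17.7% for the osteoblast response, and for vehicle days to 12.2% against 48.2% in osteoblasts, 1.17% against 3.19% in lining cells and 3.41% against 30.8% in osteocytes. Array weights gave 1 call of the response between cell types in place of 0 (Postn, lining cells minus osteocytes on day 183, -1.39, adjusted p = 0.0368). With them 2.74% of all genes passed that comparison, against 0.639% without them. The causes were not tested. With 1 array left out at a time the calls at each dose and day numbered 12 to 17, with doses averaged 6 to 9, for 50 minus 3 mg/kg 2 to 4, across dosing days 2 to 3, across vehicle days 5 to 7 and after dosing minus days 8 and 29 between 4 and 6. With 1 replicate number left out, calls between cell types stayed at 0. Calls between vehicle cell types numbered 11, and 8 with quantile normalization. Of all genes 94.8% passed for osteoblasts against lining cells, 96.8% for osteoblasts against osteocytes and 80.6% for lining cells against osteocytes. With quantile normalization these shares were 33.5%, 63.8% and 58.5%. The 11 calls, and the 48 called results above, include 3 of Tnn. Tnn entered the vehicle fit only through osteocytes, so those 3 are no support. Tnn, and Tnc in osteoblasts and lining cells from day 85 on, lay near or below the array median, which limits what could be measured. The contrast of days after dosing was added after the data were seen.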

Other observations

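On day 85 Postn and Tnc were highest at 3 mg/kg, not at 50 mg/kg, in osteoblasts and lining cells. From vehicle through 3 to 50 mg/kg, lining cell Postn averaged 3.87 ± 0.53, 5.06 ± 0.60 and 3.36 ± 0.63 (SD, n = 5 each). Lining cell Tnc averaged 3.22 ± 0.38, 4.00 ± 0.31 and 2.86 ± 0.24 in the same order. Osteoblast Postn averaged 4.31 ± 1.21, 5.31 ± 0.32 and 4.26 ± 0.46, and osteoblast Tnc 3.27 ± 0.36, 3.76 ± 0.22 and 3.32 ± 0.31 (n = 5, 5 and 4). None of the 3 mg/kg differences from vehicle passed (adjusted p = 0.24 and 0.175 for Postn and Tnc in lining cells, and 0.338 and 0.531 in osteoblasts), and the doses were not compared on single days. At 3 mg/kg on day 85, 0.0345% of all genes were called either way in lining cells and 0.0876% in osteoblasts.

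After 3 mg/kg was stopped the type I collagen genes, partners of these proteins in the matrix, were lower on day 197 in all 3 cell types. Col1a1 differed by -2.90 in osteoblasts, -2.57 in lining cells and -1.80 in osteocytes, and Col1a2 by -2.48, -2.33 and -1.37 (adjusted p at most 0.00389). On the same day Fn1 differed by +0.19, +0.03 and -0.09, and none of these passed. Of all genes 0.0789%, 0.0603% and 1.11% were called either way in these comparisons, in the same order of cell types.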
